A study of Mus musculus with 80 samples.

Results

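This account covers 10 genes of apolipoproteins and lipoprotein assembly in mouse liver: Apoa1, Apoa2, Apoa4, Apoa5, Apob, Apoc1, Apoc3, Apoe, Mttp and Lcat. They were chosen by name as the main genes of this system, by a rule that uses no measured value, though with earlier results of these data known. All 10 were found among the 22103 gene rows of the count table, and all 10 passed the filter on low counts, which kept 15197 rows. RNA came from 20 livers of female Balb-C mice aged 10 to 12 weeks, 1 mouse and 1 library each. The dosed mice received PFESA-BP2 (Nafion byproduct 2, a perfluoroalkyl ether sulfonic acid) by gavage over 7 days, and the dose was 0.03, 0.3, 3.0 or 6.0 mg/kg-day. The control mice were at 0 mg/kg-day, and each of the 5 groups held 4 mice. The dosing protocol gives deionized water for the controls, while their sample titles name DMSO, so the vehicle is not settled. All mice shared the sex, the strain and the gavage, and no other treatment or allele is given.

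Apolipoproteins are the protein coat of lipoproteins, the particles that carry lipid in blood. In liver, apolipoprotein B is loaded with triglyceride in the endoplasmic reticulum by the microsomal triglyceride transfer protein, whose large subunit Mttp encodes, and the particle leaves the cell as very low density lipoprotein (VLDL). Apolipoproteins A1 and A2 are the main proteins of high density lipoprotein (HDL), on which the enzyme encoded by Lcat esterifies cholesterol. Apolipoproteins A4, A5, C1, C3 and E move between particles and act on lipolysis by lipoprotein lipase or on uptake by liver receptors.

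Total counts per library ranged from 13086755 to 21466978. Levels are given as CPM, counts scaled to a common library size with TMM factors, with the SD over 4 mice. Changes are log2 changes over the control with their SE, and rose, fell or called are used only of genes with an adjusted p under 0.05. That p comes from edgeR's quasi-likelihood test, fitted over all 15197 genes and 20 libraries. The comparisons with control share the same 4 control mice. In each group 1 library stood apart from the other 3 on the first component of the variation within groups, namely libraries 3 (control), 11, 15, 19 and 23, each the third by library number in its group. Values with these 5 libraries left out are given beside the results that rest on them. The 5 were picked from these same values, so leaving them out or fitting a term for them lowers the spread within groups by construction. Adjusted p from those fits can therefore come out too small, and calls made only there are given as a description. Of 10 hepatocyte markers, all were present, and their summed level was 88800 to 124000 CPM at 6.0 mg/kg-day against 141000 to 183000 CPM in controls. At 6.0 mg/kg-day 4 of these 10 markers fell (Alb, Cps1, Fgb and Trf, named after their values were seen) and 0 rose, against 11.2% of all genes in each direction. The median log2 change of the 10 markers was -0.18, with 3 above 0. The summed neutrophil markers were 4.72 to 23.3 CPM at 6.0 mg/kg-day and 0.447 to 1.53 CPM in controls. Those of T and NK cells were 2.31 to 105 CPM, highest in library 22, and 2.24 to 4.78 CPM in controls. In each of these lists 1 of 2 tested markers rose, against 11.2% of all genes. The sums for Kupffer cells, sinusoidal endothelium, stellate cells, cholangiocytes, B cells and erythroid cells overlapped between 6.0 mg/kg-day and controls. In whole liver, fewer cells of a type and less RNA per cell cannot be told apart, and the part of these markers in the results was not tested.

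Of these genes, 4 lie in a cluster on chromosome 9 (coordinates of GRCm38, GENCODE M21). Apoa1 spans 46228580 to 46230466, Apoc3 46232933 to 46235636, Apoa4 46240696 to 46243459 and Apoa5 46268633 to 46271919, with Apoc3 on the minus strand and the other three on the plus strand. Apoc1 (19689481 to 19692660) and Apoe (19696109 to 19699188) are neighbours on the minus strand of chromosome 7. Apoa2 is on chromosome 1 (171225054 to 171226379), Mttp on chromosome 3 (138089854 to 138144968), Lcat on chromosome 8 (105939551 to 105943382) and Apob on chromosome 12 (7977648 to 8016835). All 10 are protein-coding, and 4 of them (Mttp, Lcat, Apoa4 and Apoa5) share positions with a gene annotated on the other strand. The sources used here do not give whether counting used strand, so these 4 levels are uncertain to that extent. Across Lcat, Gm16156 was at 0.435 to 0.554 CPM at 6.0 mg/kg-day and 0.169 to 0.969 CPM in controls. Across Apoa4, Gm10680 was at 0 to 0.807 CPM at 6.0 mg/kg-day and 0 to 9.61 CPM in controls. Across Mttp, Gm43691 was at 0 to 0.0576 CPM at 6.0 mg/kg-day and 0 to 0.114 CPM in controls. No level is given here for other genes across Apoa4 or Apoa5. Mttp shares positions with Trmt10a, a transfer RNA methyltransferase gene, which was at 11.1 to 24.1 CPM at 6.0 mg/kg-day and 9.28 to 24.8 CPM in controls, where Mttp was at 544 to 778 CPM and 398 to 412 CPM (as counts, not per length).

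Apoa5 and Apoe, the pair of apolipoprotein genes of the 10 that fell at 6.0 mg/kg-day, are shown with the bases before their start sites (RefSeq, GRCm38.p6), so that their sequences can be set side by side. The Apoa5 stretch, 250 to 26 bases before its start, is chr9:46268383-46268607 on the plus strand and the Apoe stretch is chr7:19699189-19699438 on the minus strand. Capitals mark the letters TATAAA.
Apoa5: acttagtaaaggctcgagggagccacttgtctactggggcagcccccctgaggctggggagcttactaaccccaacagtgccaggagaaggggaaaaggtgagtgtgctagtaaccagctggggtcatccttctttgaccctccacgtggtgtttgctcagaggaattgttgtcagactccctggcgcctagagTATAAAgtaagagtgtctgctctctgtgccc
Apoe: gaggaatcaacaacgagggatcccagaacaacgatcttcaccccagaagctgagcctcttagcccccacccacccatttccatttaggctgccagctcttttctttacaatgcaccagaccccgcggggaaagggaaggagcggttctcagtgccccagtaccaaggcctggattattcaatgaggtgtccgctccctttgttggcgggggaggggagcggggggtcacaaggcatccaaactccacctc
The 250 bases before the start were searched on both strands for 5 motifs in the 8 genes with an entry, which Apoc1 and Apoc3 lacked. The motifs were TATAAA (the TATA box), AGGTCA (a nuclear receptor element), CAAAGTCCA (a form of the HNF4 element), TCACNCCAC (a form of the SREBP element) and GTTAAT (part of the element of HNF1). TATAAA was found in the windows of Apoa2, Apoa5 and Apob, at 212, 56 and 60 bases before the start, and 12.4% of all 32851 windows of that length held it. None of the other 4 motifs was found in these 8 windows, and the shares of all windows with a match were 14% for AGGTCA, 0.384% for CAAAGTCCA, 1.05% for TCACNCCAC and 6.43% for GTTAAT. Only these letters were searched (N for any base), so variant sites of the same factors would be missed. At shares this low, no match in 8 windows cannot show that these genes lack sites for the factors. The 250 bases before the starts of Apoa5 and Apoe thus shared none of the 5 motifs, which says only that these letters are not in both windows.

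The genes spanned a wide range of levels. Per kb of exon, the mean level in controls was highest for Apoa1, with 4786 CPM per kb, followed by Apoa2 with 3094, Apoe with 1202, Apoc1 with 1184, Apoc3 with 612, Apob with 497, Apoa5 with 249, Lcat with 212, Apoa4 with 197 and Mttp with 65.6 CPM per kb. Between neighbours in this order the ranges of the 4 control libraries overlapped except between Apoa2 and Apoe, Apoc1 and Apoc3, Apob and Apoa5, and Apoa4 and Mttp. At 6.0 mg/kg-day Apoc1, with 824 CPM per kb, was ahead of Apoe, with 637, and Apoa4, with 254, was ahead of Apoa5 (158) and Lcat (139.9). The ranges at this dose overlapped between Apoc1 (465.7 to 1065) and Apoe (336.5 to 899.5). Those of Apoa4 (112.2 to 396.6), Apoa5 (125.9 to 202.4) and Lcat (121.7 to 164.9) overlapped as well. Mttp was last in controls and at 6.0 mg/kg-day, with 102 CPM per kb at 6.0 mg/kg-day. These levels take reads as spread evenly over exons merged from all annotated transcripts, and the title of the study speaks of targeted sequencing.

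**Figure D1:**
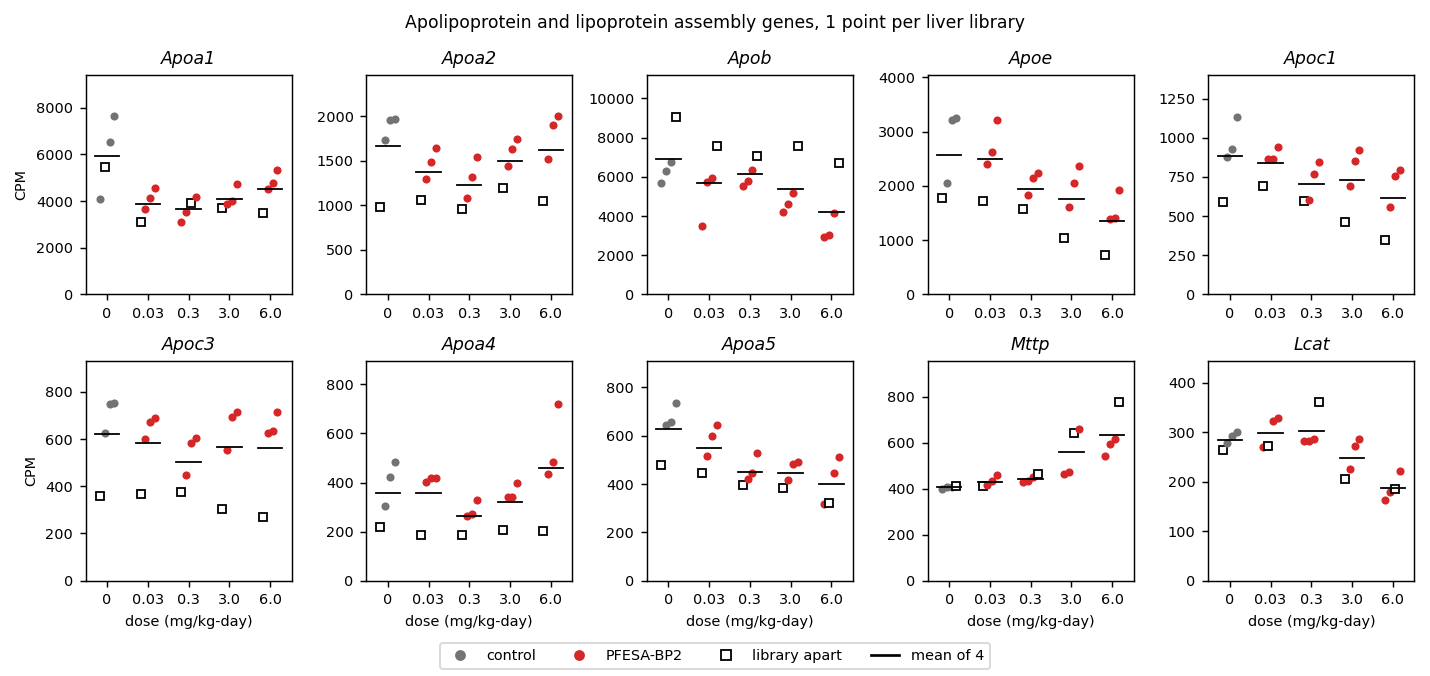
CPM of the 10 genes (vertical axes, from 0) in each liver library by dose in mg/kg-day, with filled points for the libraries of control (grey) and PFESA-BP2 (red), open squares for the 5 libraries apart and lines for the mean of 4. Mttp at 6.0 mg/kg-day runs from 544 to 778 CPM, above every control, and Lcat from 163 to 221 CPM, below every control.

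At 6.0 mg/kg-day the called genes among the 10 moved in both directions. Mttp, needed to build apolipoprotein B particles, rose by 1.56-fold, while Lcat, which matures HDL, Apoa5, an activator of triglyceride clearance, and Apoe, the ligand for remnant uptake, fell by 1.51-fold, 1.58-fold and 1.89-fold. By edgeR's quasi-likelihood test 1 of the 10 genes rose and 3 fell, against 22.4% of all genes called at this dose (11.2% of all genes rose and 11.2% fell). The median log2 change over the 10 genes was -0.46, against -0.02 over all genes tested, and 8 of the 10 values were below 0. Of the 10 genes only Mttp (above) and Lcat (below) had groups that did not overlap. Of all genes 18.5% had such groups, 9.68% above and 8.86% below. At 0.03 mg/kg-day 0 of the 10 were called by edgeR, against 0% of all genes, and 0 by DESeq2 or limma-voom. At this dose 1 of the 10 had an unadjusted p under 0.05 in edgeR, as did 565 of all 15197 genes. At 0.3 mg/kg-day 0 genes of the 10 were called by edgeR, against 0.29% of all genes, and 0 by limma-voom. DESeq2 called 1 of the 10 (Apoa1), against 186 of all genes. At this dose 2 of the 10 had an unadjusted p under 0.05 in edgeR, as did 1301 of all 15197 genes. At 3.0 mg/kg-day Mttp alone was called, against 4.61% of all genes (3.18% of all genes rose and 1.43% fell).

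**Figure D2:**
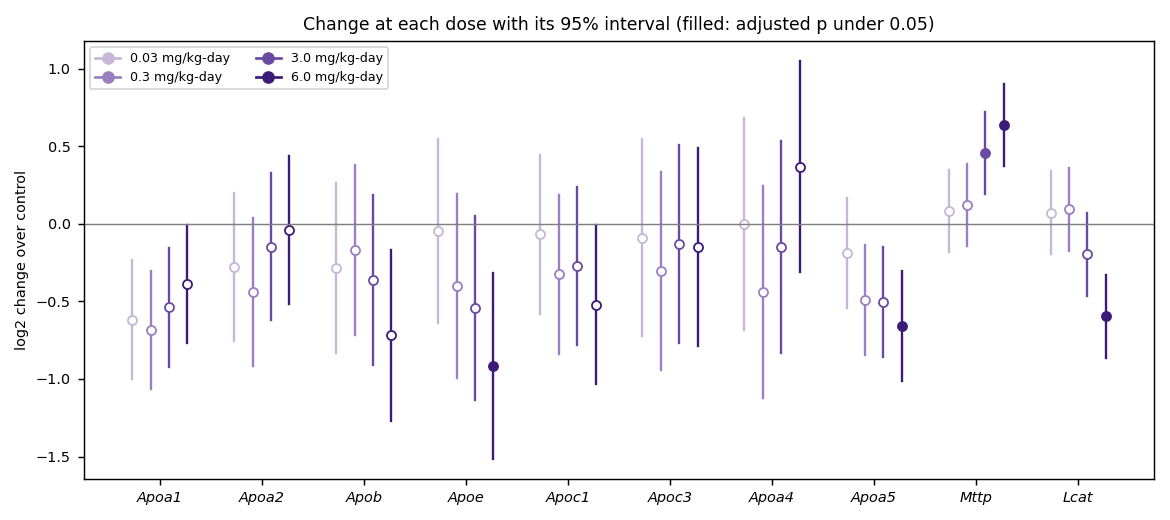
Log2 change over control of the 10 genes at each dose of PFESA-BP2 (points) with 95% intervals (lines), filled where the adjusted p was under 0.05. At 6.0 mg/kg-day, Mttp lies at 0.64 and Lcat, Apoa5 and Apoe at -0.60, -0.66 and -0.92, while the interval of Apob, from -1.27 to -0.17, lies below 0 without passing the adjusted test.

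Mttp had 595, 544, 778 and 619 CPM in the 4 libraries of 6.0 mg/kg-day, against 409, 398, 412 and 409.9 CPM in the controls. All 4 dosed mice lay above all 4 controls, which stood within a coefficient of variation of 1.46% of each other. The means were 634 ± 101 CPM at 6.0 mg/kg-day and 407 ± 5.93 CPM in controls (SD, n = 4 each), a log2 change of 0.64 (SE 0.127; edgeR adjusted p = 0.000981). At 3.0 mg/kg-day the libraries had 463, 473, 641 and 658 CPM, a change of 0.46 (SE 0.127; adjusted p = 0.0411). All 4 lay above all controls, as 5.55% of all genes did. That group split into a lower pair and a higher pair of libraries, and 1 of the higher pair was library 19, which stood apart.

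Mttp also lay above all controls at both lower doses, by less. The libraries had 416, 459, 414 and 436 CPM at 0.03 mg/kg-day and 428, 434, 463 and 449.8 CPM at 0.3 mg/kg-day. Genes whose dosed libraries lay above all controls made up 1.88% of all genes at 0.03 mg/kg-day and 3.71% at 0.3 mg/kg-day. Neither change of Mttp was called (0.08 with an adjusted p of 1 at 0.03 mg/kg-day, 0.12 with an adjusted p of 0.867 at 0.3 mg/kg-day). The slope on the rank of the 5 doses was 0.17 per step (SE 0.0289; adjusted p = 0.000174), where 26.4% of all genes had a slope that was called. The call at 6.0 mg/kg-day held in all 8 fits that left out 1 library of the 2 groups. The call at 3.0 mg/kg-day ended in 6 of 8 such fits, without control libraries 1, 2, 3 or 4 or libraries 19 or 20, with adjusted p up to 0.201, and also without the 5 libraries apart (0.40, adjusted p = 0.0598).

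Apob, the structural protein of VLDL and the longest transcript of the group, had 4178, 3042, 6712 and 2910.3 CPM at 6.0 mg/kg-day, against 6275, 5667, 9038 and 6728 CPM in controls. The highest value in each group belonged to the library that stood apart, and the other 3 dosed libraries lay below all controls. The log2 change of -0.72 (SE 0.264) did not pass edgeR's test (adjusted p = 0.0560). Without the 5 libraries apart it was -0.86 (adjusted p = 0.00135), and with a term for them -0.76 (adjusted p = 0.000699). The adjusted p was 0.03475 by DESeq2 and 0.03375 by limma-voom. At the other doses the changes of Apob were -0.29 at 0.03, -0.17 at 0.3 and -0.36 at 3.0 mg/kg-day, none called.

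Of the HDL genes, Lcat fell at the top dose. It had 180.1, 163, 186 and 221 CPM at 6.0 mg/kg-day, against 301, 279, 264 and 293 CPM in controls. The groups did not overlap, and the log2 change was -0.60 (SE 0.129; edgeR adjusted p = 0.00199), called in all 8 fits that left out a library. At 3.0 mg/kg-day it had 287, 272, 206 and 226 CPM, a change of -0.20 that was not called, with 2 of 4 libraries below all controls. Its mean was 299 ± 31.5 CPM at 0.03 and 303 ± 38.6 CPM at 0.3 mg/kg-day, against 284 ± 16.3 CPM in controls (SD, n = 4 each), with changes of 0.07 and 0.09 that were not called. Between 6.0 and 3.0 mg/kg-day the change of Lcat was -0.40 (adjusted p = 0.116), which passed without the 5 libraries apart (-0.47, adjusted p = 0.0237) and with a term for them (-0.40, adjusted p = 0.0398).

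Apoa1, the main HDL protein, had a lower mean at every dose, and whether a single dose was called depended on the fit. In order of dose the libraries had 6521, 7619, 5435 and 4086 CPM in controls, then 4548, 4114, 3099 and 3661 CPM at 0.03 mg/kg-day, and 4158, 3109, 3921 and 3526 CPM at 0.3 mg/kg-day. At the higher doses they had 3859.9, 4714, 3705 and 4007 CPM at 3.0 mg/kg-day and 4502, 4762, 3478 and 5323 CPM at 6.0 mg/kg-day. Control library 4 lay among the dosed libraries, and the other 3 controls lay above all 16 of them.
The log2 changes were -0.62, -0.69, -0.54 and -0.39 in order of dose, and the joint test of the 4 dose terms passed (edgeR adjusted p = 0.0391), as it did for 21.4% of all genes. The joint call ended in 12 of the 20 fits that left out 1 library, without control libraries 1, 2 or 3, libraries 10, 11 or 12 (0.03), 14 or 16 (0.3), 17 or 20 (3.0) or 21 or 22 (6.0), with adjusted p up to 0.181. The joint call also ended by limma-voom (adjusted p = 0.05425) and in edgeR with no filter on low counts (adjusted p = 0.05354). The slope on dose rank was not called (-0.08, adjusted p = 0.259), and the change was smallest in size at the top dose. No single dose was called by edgeR's main test (adjusted p 1, 0.139, 0.118 and 0.136 in order of dose). With a term for the libraries apart, edgeR called Apoa1 at 0.3 (-0.68, adjusted p = 0.0257), 3.0 (-0.54, adjusted p = 0.0303) and 6.0 mg/kg-day (-0.40, adjusted p = 0.0499), and with these libraries left out at none. By DESeq2 the adjusted p was 0.0204 at 0.3 mg/kg-day and 0.0483 at 3.0 mg/kg-day.

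Apoa2, the second HDL protein, had 1901, 2004, 1046 and 1516 CPM at 6.0 mg/kg-day, against 1960.4, 1963, 986 and 1736 CPM in controls. The groups lay over each other, with a log2 change of -0.04 and a 95% interval from -0.52 to 0.44. Its lowest mean was at 0.3 mg/kg-day, where the change was -0.44 (adjusted p = 0.641).

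Of the genes that act on triglyceride clearance, Apoa5, whose protein promotes lipolysis by lipoprotein lipase, was lower in a graded way. It had 444, 317, 321 and 511 CPM at 6.0 mg/kg-day, against 644, 737, 478 and 656 CPM in controls. The groups overlapped through control library 3, which stood apart, and 3 of the 4 dosed libraries lay below all controls. The log2 change was -0.66 (SE 0.171; edgeR adjusted p = 0.00828), called in all 8 fits that left out a library but not with only these groups in the fit (adjusted p = 0.0609). Means were 551 CPM at 0.03, 448 CPM at 0.3 and 444 CPM at 3.0 mg/kg-day, with changes of -0.19, -0.49 and -0.50 that were not called. The slope on dose rank was -0.16 per step (adjusted p = 0.00214). The joint test passed (0.0320), and that call ended without control libraries 1, 2 or 4 or libraries 10 or 22, with adjusted p up to 0.0934. With a term for the libraries apart Apoa5 was called at 0.3 (-0.48, adjusted p = 0.0436) and 3.0 mg/kg-day (-0.49, adjusted p = 0.0112). With these libraries left out it was called at 3.0 mg/kg-day (-0.53, adjusted p = 0.0432).

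Apoa4, made mostly by intestine and also by liver, had 484, 436, 204 and 719.9 CPM at 6.0 mg/kg-day, against 485, 421, 217 and 304 CPM in controls. One dosed library, number 24, lay above all controls and library 23 below them, and the log2 change of 0.37 (SE 0.327) was not called (adjusted p = 0.457). Of 6 enterocyte markers 2 were in the table, with Fabp2 at 79.4 CPM at 6.0 mg/kg-day and 60.5 CPM in controls and Vil1 near 0, and their part in the level of Apoa4 was not tested. Apoc3, whose protein slows lipolysis, had 633, 713, 268 and 625 CPM at 6.0 mg/kg-day, against 752, 748, 358 and 624 CPM in controls. Its groups overlapped and its change was -0.15 (95% interval -0.78 to 0.49; adjusted p = 0.768). Apoa4 and Apoc3, both in the cluster with Apoa1 and Apoa5 on chromosome 9, were thus not called at any dose.

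Apoe and Apoc1 are neighbours whose proteins act on the uptake of remnant particles. Apoe had 1414, 1389, 719 and 1923 CPM at 6.0 mg/kg-day, against 3211, 3251, 1769.9 and 2052 CPM in controls. Dosed library 24 lay above control library 3, and the other 3 dosed libraries lay below all controls. The log2 change was -0.92 (SE 0.286; edgeR adjusted p = 0.0257). It was the largest in size of the 10 genes at this dose with all libraries, while without the 5 libraries apart that of Apob was larger (-0.86 against -0.83). Means were 2494 CPM at 0.03, 1948 CPM at 0.3 and 1767 CPM at 3.0 mg/kg-day, with changes of -0.04, -0.40 and -0.54 that were not called, and the slope was -0.23 per step of dose rank (adjusted p = 0.00741). Apoe, Apoa5 and Lcat had a falling slope that was called, against 12.7% of all genes, and Mttp a rising one, against 13.7%. The call at 6.0 mg/kg-day ended in 5 of 8 fits, without control libraries 1 or 2 or libraries 21, 22 or 23, with adjusted p up to 0.0754, and with only the 2 groups in the fit (adjusted p = 0.0782). Without the 5 libraries apart the change was -0.83 (adjusted p = 0.00250). With a term for them Apoe was also called at 3.0 mg/kg-day (-0.56, adjusted p = 0.0332).

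Apoc1 had 793, 753, 346 and 561 CPM at 6.0 mg/kg-day, against 929, 1130.2, 589 and 876 CPM in controls. The groups overlapped, with 2 of 4 dosed libraries below all controls. The log2 change of -0.52 (SE 0.245) was not called (adjusted p = 0.136) and was called without the 5 libraries apart (-0.46, adjusted p = 0.0314) and with a term for them (-0.54, adjusted p = 0.00608).

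By the measure of likeness used here, the root mean square difference of the 4 log2 changes, the genes closest to Apoe among 7561 genes with a mean of 10 CPM or more were Map7d1 (0.0545), Abhd2 (0.0698) and Farp1 (0.0808). Abhd2, at a mean of 325 CPM, had log2 changes of -0.15, -0.32, -0.57 and -0.90 in order of dose, against -0.04, -0.40, -0.54 and -0.92 for Apoe. The 4 changes share the control libraries, so this likeness is a description.

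Between 6.0 and 3.0 mg/kg-day 0 of the 10 genes were called by edgeR, against 2.09% of all genes, and 0 by DESeq2 or limma-voom. In edgeR 1 of the 10 (Lcat) had an unadjusted p under 0.05, as did 2306 of all 15197 genes. Without the 5 libraries apart 2 of the 10 were called, Lcat as above and Apoa4, which was higher at 6.0 mg/kg-day by 0.61 (adjusted p = 0.0385). Over all genes that fit called 1476, against 318 with all libraries.

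Together the 10 genes held 1.39%, 1.37%, 1.46% and 1.51% of all counts in the libraries of 6.0 mg/kg-day, against 2.03%, 2.13%, 2.00% and 1.84% in controls. The dosed libraries all lay below the controls, also at 0.03 mg/kg-day, where the share ran from 1.57% to 1.77%. The mean share was 2.00% ± 0.122 in controls, 1.68% ± 0.0999 at 0.03, 1.58% ± 0.0883 at 0.3, 1.55% ± 0.0668 at 3.0 and 1.43% ± 0.0614 at 6.0 mg/kg-day (SD, n = 4 each). Apob and Apoa1 have the highest CPM of the 10 genes and weigh most in this share, which is a sum over genes and was not tested.

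**Figure D3:**
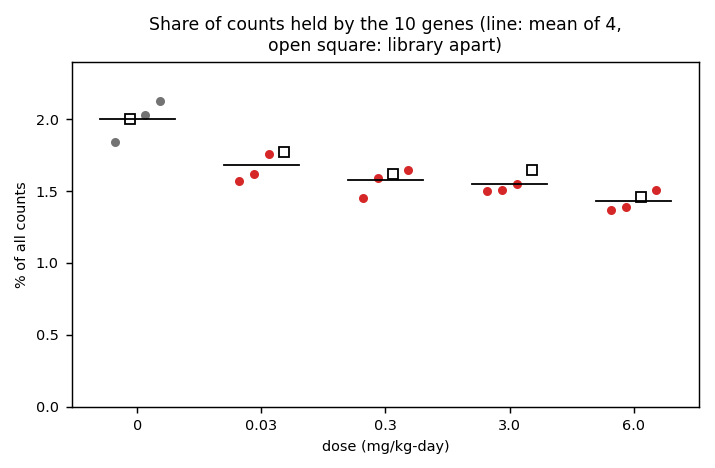
Percent of all counts held by the 10 genes (vertical axis, from 0) in each library by dose in mg/kg-day, with grey points for control, red points for PFESA-BP2, open squares for the libraries apart and lines for means. All 16 dosed libraries lie below the lowest control, at 1.84%.

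The libraries apart differed from the others in part along exon length. The log2 level of these 5 libraries over the others was taken as their term in edgeR's fit with a mean per group. It was 0.62 for Apob, with 13934 bases of exon, and 0.15 for Mttp, with 6206 bases. It averaged -0.61 for Apoa2 (537 bases), -0.64 for Apoc1 (744 bases) and -0.94 for Apoc3 (1014 bases). Lcat (1342 bases, -0.06, from -0.34 to 0.35 over the groups) and Apoa1 (1236 bases, -0.21) lay nearer to 0, so length did not order all 10 genes. The library apart was the lowest of its group in 5 of 5 groups for Apoa4 (-0.97), Apoa2, Apoc1, Apoc3 and Apoe. For Apob it was the highest in 5 of 5. Over all genes the median ran from -0.53 for genes under 1 kb to 0.28 for genes over 8 kb. Apoe (-0.76, 2138 bases) and Apoa5 (-0.36, 2522 bases) lay further from 0 than the median of their length class, -0.11. So did Apoa4 (1815 bases) and Apoc3 against -0.30, and Apoa2 and Apoc1 against -0.53. Mttp against 0.12 and Apob against 0.28 also did, while Apoa1 and Lcat lay nearer to 0 than -0.30.

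**Figure D4:**
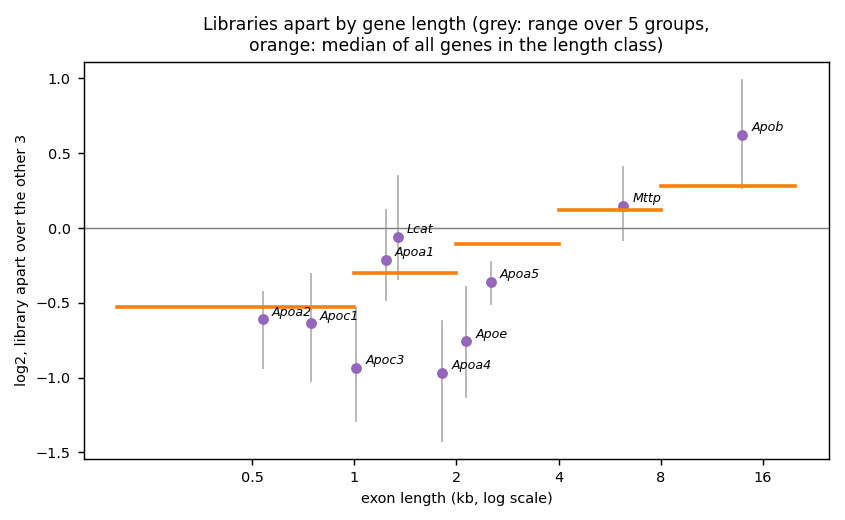
Log2 level of the libraries apart over the others, as their term in edgeR's fit (points), against exon length in kb on a log scale for the 10 genes. Grey lines give the range over the 5 groups of the log2 ratio of CPM, the library apart over the mean of the other 3. Orange lines give the median of all genes in each length class, from -0.53 under 1 kb to 0.28 over 8 kb, and Apob, the longest gene, lies highest at 0.62.

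Of 87 other lipoprotein genes tested in 6 lists, 9 rose and 27 fell at the top dose, where 11.2% of all genes rose and 11.2% fell. At 3.0 mg/kg-day there were 1 that rose and 7 that fell, against 3.18% and 1.43% of all genes. At 0.03 and 0.3 mg/kg-day 0 were called by edgeR, against 0% and 0.29% of all genes. At these doses 3 and 12 of the 87 had an unadjusted p under 0.05 in edgeR, against 565 and 1301 of all 15197 genes. DESeq2 called 0 of them at 0.03 and 3 at 0.3 mg/kg-day, against 10 and 186 of all genes, and limma-voom 0 at both. From each list the 4 genes ranked first by adjusted p at the top dose are named, passing or not, and any other is said to be an addition.

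In the list of assembly and secretion of apolipoprotein B particles, 4 of 19 genes rose and 2 fell, against 11.2% of all genes in each direction, with a median log2 change of 0.27. Sar1b, the small GTPase of the COPII coat that carries these particles out of the endoplasmic reticulum, had 202 to 349 CPM at 6.0 mg/kg-day and 78.8 to 109.9 CPM in controls. It rose by 2.86-fold (log2 1.52, SE 0.163; edgeR adjusted p = 1.04e-06) and also at 3.0 mg/kg-day (0.94, adjusted p = 0.000912), while its close relative Sar1a, named after its values were seen, had 0.01 (adjusted p = 0.963). Vmp1, an endoplasmic reticulum protein needed for lipoprotein release, rose by 0.59 (adjusted p = 0.00121), with 122 ± 18.8 CPM at 6.0 mg/kg-day and 81.1 ± 1.53 CPM in controls. Apobec1, which edits the apolipoprotein B transcript, rose by 0.47 (adjusted p = 0.0114), a call that ended with only the 2 groups in the fit (adjusted p = 0.0901).
Dgat2, which makes triglyceride for the particles, fell by 0.85 (adjusted p = 0.00116), with 190.4 to 336 CPM at 6.0 mg/kg-day and 360.2 to 521 CPM in controls. Its partner enzyme Dgat1 and the Mttp partner subunit P4hb, both named after their values were seen, had 0.23 (adjusted p = 0.384) and 0.39 (adjusted p = 0.0571). The called genes of this list thus moved in both directions.

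In the list of HDL formation and remodelling, 0 of 12 genes rose and 5 fell, against 11.2% of all genes each way, and the median change was -0.34. Scarb1, the liver's receptor for HDL cholesterol, had 75.1 to 121 CPM at 6.0 mg/kg-day and 159.9 to 251 CPM in controls, and fell by 1.10 (adjusted p = 0.000302). Bmp1, a protease that trims the propeptide of apolipoprotein A1, had 53.1 ± 10.8 CPM and 103 ± 5.45 CPM in controls and fell by 0.95 (adjusted p = 1.14e-05). Abcg8 (-0.78, adjusted p = 0.000317) and Abcg5 (-0.44, adjusted p = 0.00285), which together form the sterol exporter into bile, fell as well. The call of Abcg5 ended with only the 2 groups in the fit (adjusted p = 0.0524). Bmp1, Abcg5 and Abcg8 had also fallen at 3.0 mg/kg-day, by 0.43, 0.39 and 0.58, with adjusted p of 0.0487, 0.0235 and 0.0138. Abca1, which loads apolipoprotein A1 with lipid and was named after its value was seen, had -0.64 (adjusted p = 0.0798).

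Of 11 receptor and uptake genes, 1 rose and 4 fell (all genes, 11.2% each way), with a median of -0.26. Vldlr, the VLDL receptor, low in normal liver, had 52.3 to 83.3 CPM at 6.0 mg/kg-day and 13.04 to 35.7 CPM in controls and rose by 1.56 (SE 0.257; adjusted p = 0.000154). Lrp1, a remnant receptor that binds apolipoprotein E, had 124 to 268 CPM and 349.7 to 466 CPM in controls and fell by 1.19 (SE 0.183; adjusted p = 7.50e-05). Lrp1 was also lower at 6.0 than at 3.0 mg/kg-day, by 0.92 (adjusted p = 0.00975). At 0.03 and 0.3 mg/kg-day it averaged 604 and 636 CPM, above all controls in every library, with changes of 0.52 and 0.59 that were not called (adjusted p 1 and 0.227). Of all genes, 1.88% and 3.71% lay above all controls at these doses. Ndst1, which sulfates the heparan chains that catch remnants, fell by 0.93 (adjusted p = 0.00476), and Lsr, the lipolysis-stimulated receptor, by 0.47 (adjusted p = 0.0159). The call of Lsr ended without library 21 or 22 (adjusted p 0.0643 and 0.0688) and with only the 2 groups in the fit (0.0869).

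Of 6 genes of lipoprotein lipase and its regulators, 2 rose and 0 fell (all genes, 11.2% each way). Lpl, the lipase itself, had 30.6 ± 6.62 CPM at 6.0 mg/kg-day and 20.05 ± 3.48 CPM in controls (0.61, adjusted p = 0.00365), and Gpihbp1, which holds it on endothelium, 6.84 ± 0.545 CPM and 3.96 ± 0.826 CPM in controls (0.78, adjusted p = 0.00601). The call of Lpl ended with only the 2 groups in the fit (adjusted p = 0.0604). Lmf1, needed for lipase folding, had -0.33 (adjusted p = 0.277), and Angptl4, a lipase inhibitor, 0.24 (adjusted p = 0.368). In the list of the other apolipoproteins 1 of 10 genes rose and 2 fell, against 11.2% of all genes each way. Apoc2, the cofactor that activates the lipase, rose by 0.78 (adjusted p = 0.00927), with 58.9 ± 12.4 CPM at 6.0 mg/kg-day and 34.4 ± 7.74 CPM in controls. Apom, an HDL protein that carries sphingosine 1-phosphate, fell by 0.47 (adjusted p = 0.00258), Apol7a fell by 0.82 (adjusted p = 0.00350), and Apoh had -0.44 (adjusted p = 0.0708). With only the 2 groups in the fit the call of Apom ended (adjusted p = 0.0740).

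Of 29 transcription factors and coactivators known to act on these genes, 1 rose and 14 fell at the top dose, where 11.2% of all genes rose and 11.2% fell. Their median change was -0.35. Esr1, the estrogen receptor, had 27.9 ± 7.84 CPM at 6.0 mg/kg-day and 74.1 ± 17.6 CPM in controls and fell by 1.41 (adjusted p = 3.89e-05). Ppara, the fatty acid sensor that acts on Apoa5 and Apoc3, fell by 1.07 (adjusted p = 0.000225), Nr1d1, a clock repressor, by 0.95 (adjusted p = 0.000265), and Nr1i3, the xenobiotic receptor CAR, by 0.92 (adjusted p = 8.83e-05). Ppara, Nr1d1 and Nr1i3 had also fallen at 3.0 mg/kg-day, by 0.80, 0.63 and 0.71. Hnf4a, which binds the promoters of several apolipoprotein genes and was named after its value was seen, had 209.8 ± 68.7 CPM and 314 ± 40.1 CPM in controls and fell by 0.58 (adjusted p = 0.0248), a call that ended without control library 3 or libraries 21 or 22 (adjusted p up to 0.0992). The call of Hnf4a also ended with only the 2 groups in the fit (adjusted p = 0.108) and with total counts only (0.0551).

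**Figure D5:**
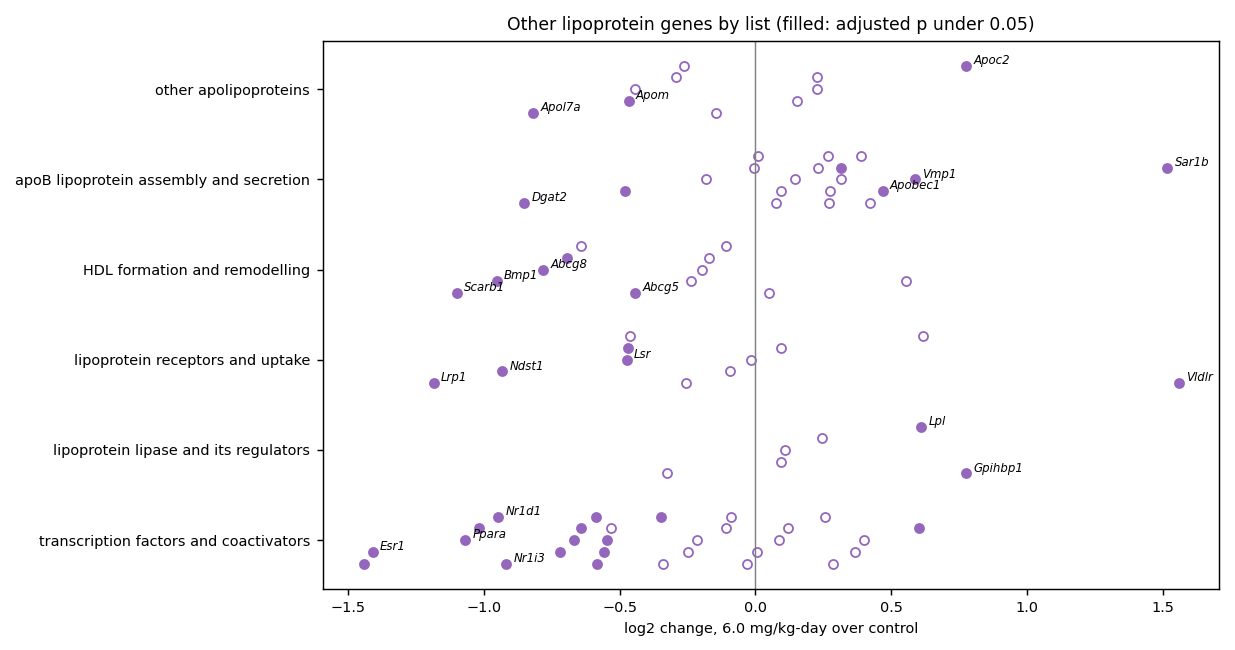
Log2 change at 6.0 mg/kg-day over control of the 87 other lipoprotein genes, 1 point each by list, filled where the adjusted p was under 0.05, with vertical offsets for legibility only. Sar1b at 1.52 and Vldlr at 1.56 lie furthest to the right of the named genes, and Esr1 at -1.41, Lrp1 at -1.19 and Scarb1 at -1.10 furthest to the left.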

How the data were processed

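The authors' deposited table holds expected counts per gene, 1 column per library, read as such from its values, of which 58% are whole. Each library was run over 4 lanes. Per the submitters' processing notes the build was GRCm38.p5 and the tool Partek, while the sources used here do not give the aligner, annotation or strandedness. Counts were rounded, filtered with edgeR's filterByExpr and scaled with TMM. One fit of 20 mice with a mean per group was tested by quasi-likelihood in edgeR 4.0.16 (R 4.3.3), with Benjamini-Hochberg adjustment over 15197 genes. DESeq2 1.42.0 and limma-voom (limma 3.58.1) served as alternatives. Each SE was derived from the change and its F value. Other alternatives were RLE factors, total counts only, no filter, only the 2 groups compared, each library left out, and the 5 libraries apart left out or given a term; these were set by the first component of the residuals from the group means. A slope on dose rank and a joint test of the 4 dose terms were added. The genes and lists were chosen with earlier results of these data known. From each list the 4 genes ranked first by adjusted p at the top dose were named, and others are said to be additions.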

Additional observations from a re-analysis of the deposited data

Results flagged for a closer look

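In 55 groups of 4 values (each gene and the summed share, by dose), 2 had a library far from the others by Dixon's ratio, where chance alone gives about 1 in 20. Apoa4 at 0.03 mg/kg-day was lowest in library 11, with 186 CPM against 402 CPM or more in the other 3 (ratio 0.925). Lcat at 0.3 mg/kg-day was highest in library 15, with 361 CPM against 287 CPM or less in the other 3 (ratio 0.937). Both are libraries that stood apart, and both genes were not called at these doses.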

How the results depend on the processing

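No paired analysis was possible because the groups share no replicate numbers. The libraries apart are the third by number in each group, but the labels do not say that this position marks a shared batch, so it was used only through the term for these libraries. At 6.0 mg/kg-day the count of the 10 genes called was 4, and 2 with only the 2 groups compared in the fit (Apoa5 and Apoe lost) or 7 with a term for the libraries apart. Apob was added by DESeq2, by limma-voom and without the libraries apart, and Apoc1 also without them. Over the 8 alternatives the count ran from 2 to 7. At 3.0 mg/kg-day, where 1 was called, it was 0 with total counts only, with no filter on low counts and with only the 2 groups, 2 by DESeq2 and 4 with the term. Calls over all genes at this dose ran from 520 to 1393 over the 8 alternatives, the most with the term, against 701. At 0.3 mg/kg-day the count of the 10 genes was 1 by DESeq2 and 2 with the term, against 0. Calls over all genes there were 186 and 306, against 44. Between 6.0 and 3.0 mg/kg-day the count of the 10 genes was 2 without the libraries apart and 1 with the term, against 0. Calls over all genes there were 1476 and 1400, against 318. In the joint test the count of the 10 genes was 8 without these libraries and 8 with the term, against 4. Joint calls over all genes rose as well, to 5522 and 6035, against 3255 (21.4% of all genes). The lowest joint count of the 10 genes over the 7 alternatives was 3. Apoa1 was lost by limma-voom and with no filter on low counts. Of the other lipoprotein genes, 36 were called at 6.0 mg/kg-day and 19 with only the 2 groups, 8 at 3.0 mg/kg-day and 5 with only the 2 groups or 16 with the term, and 0 at 0.3 mg/kg-day against 3 by DESeq2 and 4 with the term. Over all genes at 6.0 mg/kg-day, 3405 were called, 1726 with only the 2 groups, 5228 without the libraries apart and 5639 with the term. The libraries apart were picked by the spread within groups in these same values, so the fits without them or with the term are no independent check. The cause was not tested.

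With 1 library left out at a time, the count of the 10 genes ran from 0 to 1 at 0.3, from 0 to 1 at 3.0 and from 3 to 5 at 6.0 mg/kg-day, and from 2 to 5 in the joint test. Over all genes it ran from 12 to 51 at 0.3, 451 to 681 at 3.0 and 2346 to 4653 at 6.0 mg/kg-day. In the joint test over all genes it ran from 2334 to 4260. Of the other lipoprotein genes it ran from 0 to 1 at 0.3, from 3 to 7 at 3.0 and from 27 to 38 at 6.0 mg/kg-day.

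Changes that reversed were never called. At 0.03 mg/kg-day Apoa4 had 0.0364 with total counts only, 0.000886 with only the 2 groups and 0.0427 without the libraries apart, and Apoe 0.000351 with total counts only. Lcat at 0.3 mg/kg-day had -0.0322 without the libraries apart. With 1 library left out, Apoa4 ran from -0.179 to 0.221, Apoc1 from -0.219 to 0.0749, Apoc3 from -0.279 to 0.0872 and Apoe from -0.189 to 0.105 at 0.03 mg/kg-day, and Lcat from -0.0021 to 0.127 at 0.3 mg/kg-day. Apoa4 ran from -0.326 to 0.0343 and Apoc3 from -0.321 to 0.0760 at 3.0 mg/kg-day. At 6.0 mg/kg-day Apoa2 ran from -0.224 to 0.121 and Apoc3 from -0.340 to 0.0825. With 4 mice a group, changes of the size seen at the lower doses lie within intervals that include 0 for most of these genes.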
